A study of Mus musculus with 4 samples.

Results

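The cells described here are the chondrocytes of 12-16-month-old mouse spines, compared between a control and an Nf1 mutant library of sorted tdTomato-positive cells. A cell was taken as a chondrocyte when it held over 750 UMIs (unique molecular identifiers, each standing for 1 counted transcript), over 500 genes, under 7% mitochondrially encoded UMIs, at least 1 UMI of Sox9, the transcription factor that sets up the cartilage programme, and at least 3 UMIs of Acan, which encodes the large proteoglycan aggrecan. The rule kept 89 of 135 cells passing the quality limits in the control library and 258 of 421 in the mutant library. These 347 cells are a share of the 1286 cells that met the same rule, and of the 1757 that passed the quality limits, in all 4 libraries of the series. Exactly 3 Acan UMIs, the fewest allowed, were held by 6 control and 4 mutant chondrocytes, and 3 control and 7 mutant cells with Sox9 stood just outside with 2. A second set held the composition of the chondrocytes: cells with at least 3 UMIs of Zfp804b and Dab1 together, or of Ihh, Panx3, Prkg2 and Col10a1 together, were left out, the latter genes being those of prehypertrophic and hypertrophic chondrocytes. This left 68 control and 171 mutant cells. The 8 genes of both rules are not results.

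The study asked what loss of Nf1 does to spine cells of the Prss56 lineage, which starts in boundary cap cells of the neural crest. Control mice carried Prss56Cre/+;R26tdTom/tdTom;Nf1+/+ and mutant mice Prss56Cre/Cre;R26tdTom/tdTom; Nf1fl/fl, so that the groups differed by 1 against 2 Cre alleles as well as by Nf1, and the effects of the alleles cannot be told apart. Cre was driven from the Prss56 gene, so tdTomato marks a lineage and not a cell type, and all animals carried the reporter on both alleles. Vertebrae with visible tdTomato were digested with collagenase and dispase, cells with CD11b, CD31 or CD45 on the surface and dead cells were discarded, and the tdTomato-positive remainder was loaded on a droplet system that counts the 3′ ends of transcripts. Each group at each age was 1 library, so that no comparison below has a replicate check, no test was possible, and all 95% intervals cover counting error only. A library, the animals in it and the genotype cannot be told apart.

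Chondrocytes of the endplate, the disc and the articular surfaces of the spine live in a matrix of type II, IX and XI collagens and aggrecan, and neighbouring cells of fibrous cartilage and the outer disc add type I collagen and small proteoglycans. Endplate and growth plate chondrocytes can become hypertrophic, switch on Runx2, Sp7 and mineralization genes such as Alpl and Spp1, and give way to bone. Neurofibromin, the Nf1 product, switches RAS off. Its loss lengthens signalling through the MAPK kinases, which in many cells raises feedback genes such as the Dusp phosphatases and the Sprouty and Spred inhibitors.

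The control chondrocytes held 1308144 UMIs with a median of 11655 per cell, and the mutant chondrocytes 2862639 with a median of 8670.5. The medians of genes per cell were 3390 and 2797, and the libraries shared 0 barcodes. Of 10 chondrocyte marker genes (among them Col2a1, Col9a1, Hapln1, Matn3, Comp and Snorc), 0 were at 0 in either library, and their summed level was 24441 CPM (UMIs of the gene per 1000000 UMIs of the summed cells) in the control and 30386 CPM in the mutant. Markers of discarded cell types were low: 10 hematopoietic markers summed to 13.8 and 10.5 CPM, with 5 of 10 at 0 in each library, and 5 endothelial markers to 1.53 and 3.14 CPM. Hemoglobin and Alas2 transcripts summed to 17.6 and 1.40 CPM. Single cells carried some of the sums. The deepest control chondrocyte held 71954 UMIs, 5.50% of all control UMIs, and 1 mutant cell of 16738 UMIs held 37 UMIs of Krt8, 20 of Krt19, 19 of T and 74 of Cd24a, markers of notochordal cells. Both sexes were present: 66 control and 203 mutant cells held Xist and no Y-linked UMI, and 14 and 22 held Y-linked UMIs and no Xist.

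Nf1 transcripts were counted under both labels, and the difference between them was within counting error. Nf1 (chromosome 11, 79339693-79581612, plus strand, mm10) was read at 145 CPM (95% interval 125 to 167, 190 UMIs) in control chondrocytes and at 124 CPM (112 to 138, 356 UMIs) in mutant chondrocytes. The ratio of mutant to control was 0.856 (0.716 to 1.03), an interval that includes 1. With the composition held the ratio was 0.875. Transcripts are counted at their 3′ end and a deletion of inner exons can leave that end in place, so Nf1 was no check of the labels, and the libraries are called by their labels throughout. The Nf1 ratio in the 3-month chondrocytes, read from other libraries, was 1.20 (1.09 to 1.31). tdTomato was read at 8 and 13 UMIs and Prss56 at 0 UMIs in both libraries, which allows up to 3 UMIs in each.

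Most genes of the mutant chondrocytes lay near their control level, and a small set stood apart in each direction. Of 5884 genes with at least 100 UMIs over both libraries, 380 (6.46%) were at least 1.5-fold higher under the mutant label and 335 (5.69%) at least 1.5-fold lower, and the median log2 ratio was -0.00. With the composition held, 196 of 3275 genes (5.98%) were higher and 213 (6.50%) lower by the same limit. Of the 380 higher genes 225 (59.2%) were also at least 1.5-fold higher with the composition held, as were 234 (69.9%) of the 335 lower genes in their direction. Without the top cell of each gene in each library the shares were 96.6% and 77.3%.

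**Figure D1:**
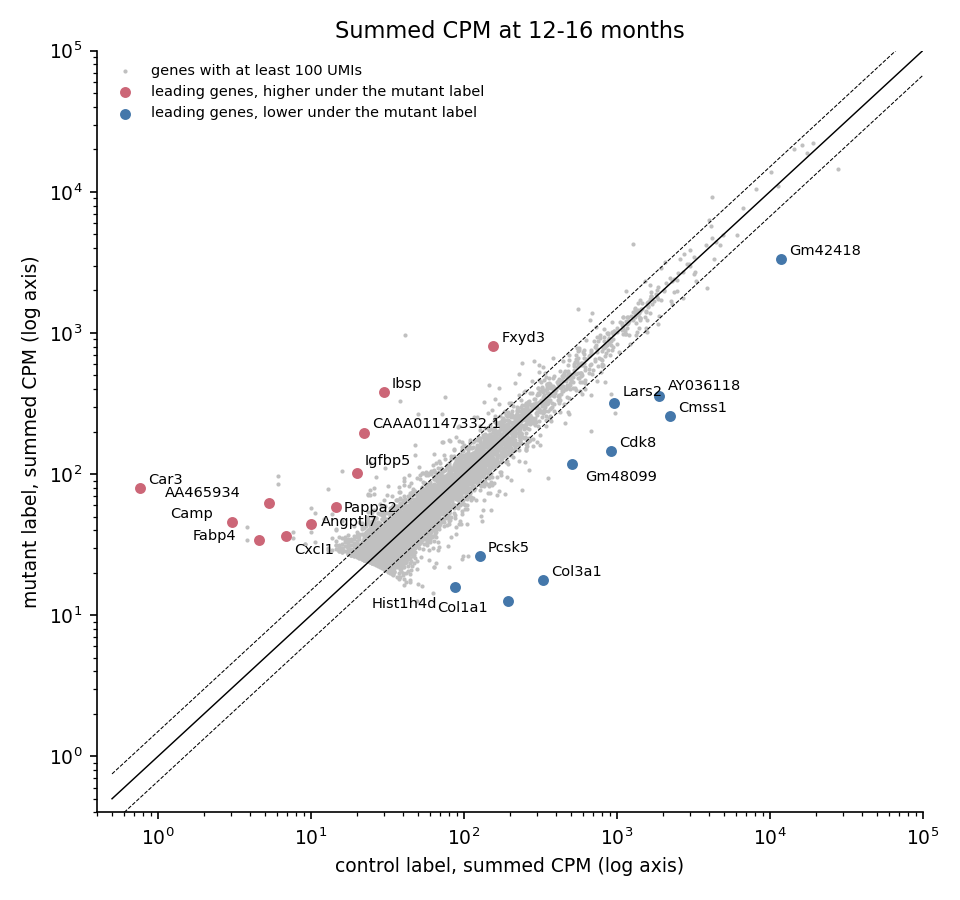
Summed CPM of 5884 genes in 89 control (x axis) and 258 mutant (y axis) chondrocytes, both on log axes, with 11 leading higher and 10 leading lower genes in colour, the diagonal as a full line and 1.5-fold as dashed lines. Gm42418 (11904 and 3324 CPM) is the most abundant leading gene and lies below the diagonal, and Fxyd3 (156 and 808 CPM) is the most abundant leading gene above it.

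The leading higher genes were chosen as the 12 whose interval stood farthest from 1, taking the weaker of all chondrocytes and composition-held chondrocytes. Fxyd3 (chromosome 7, 31068172-31076704, minus strand), a small membrane protein that regulates the sodium-potassium pump, was the most abundant of them. It was read at 156 CPM (135 to 179) in control and 808 CPM (776 to 842) in mutant chondrocytes, a ratio of 5.18 (4.49 to 6.01), and at 5.33 times the control level with the composition held. At least 1 Fxyd3 UMI was found in 50.6% of control and 81.8% of mutant chondrocytes, and after thinning every cell to 3000 UMIs in 24.7% and 70.0%. In the other passing cells of the same libraries, 6.52% of control cells (46 cells, median 12748 UMIs) and 9.20% of mutant cells (163 cells, median 7584 UMIs) held a Fxyd3 UMI. The median mutant chondrocyte stood at 672 CPM of Fxyd3 and the median control chondrocyte at 23.5 CPM.

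Other leading higher genes were either spread over many chondrocytes or carried by few. The unnamed genes CAAA01147332.1 (22.2 and 197 CPM, ratio 8.89, 6.12 to 13.4) and AA465934 (5.35 and 62.5 CPM, ratio 11.7, 5.56 to 29.5) were of the first kind, with a UMI in 72.9% and 44.2% of mutant chondrocytes against 25.8% and 3.37% of control chondrocytes. Fabp4, a fatty acid carrier of adipocytes and endothelium, was read in 5.62% and 8.14% of cells (4.59 and 33.9 CPM). Angptl7, a secreted angiopoietin-like protein, was read at 9.94 and 44.4 CPM (ratio 4.46, 2.52 to 8.61). Pappa2, a protease that frees IGF from its binding proteins, was read at 14.5 and 58.0 CPM (ratio 3.99, 2.48 to 6.80), and Cxcl1, a neutrophil-attracting chemokine, at 6.88 and 36.7 CPM. Igfbp5 owed 140 of its 290 mutant UMIs to 1 cell. Camp, a granule peptide of neutrophils, owed 123 of 131 to 1 cell, and its ratio of 15.0 became 1.83 without the top cells. Car3, a carbonic anhydrase listed here as a notochord marker, had 1 control UMI and 229 mutant UMIs, all 229 in the cell with Krt8, Krt19 and T described above.

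Most of the 12 leading lower genes were read in nearly all control cells, and most were also lower under the mutant label in cells that are not chondrocytes. Gm42418, a non-coding transcript from a region of chromosome 17 (39846958-39848788, plus strand) with ribosomal RNA sequence, was read at 11904 CPM in control and 3324 CPM in mutant chondrocytes (ratio 0.279, 0.272 to 0.286). AY036118 lies within it on the other strand (39847113-39848035) and was read at 1897 and 355 CPM. Cmss1, a small-subunit ribosome factor (chromosome 16, 57302000-57606864), was read at 2215 and 259 CPM (ratio 0.117, 0.108 to 0.127). No mutant chondrocyte reached the median control chondrocyte for Cmss1. Cdk8, the Mediator kinase, was read at 918 and 145 CPM, and Lars2, the mitochondrial leucyl-tRNA synthetase, at 960 and 320.3 CPM. The histone gene Hist1h4d (87.1 and 15.7 CPM) and the non-coding Gm48099 (511 and 118 CPM) had ratios of 0.180 and 0.231.

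In the 46 control and 163 mutant passing cells outside the rule, 11 of the 12 leading lower genes and 9 of the 12 leading higher genes were at least 1.5-fold different in the same direction. Of the 10 leading higher genes with at least 20 UMIs in these cells, 8 did so. The background there was 5.56% of 4392 genes lower and 27.5% higher. Cmss1 had a ratio of 0.137 in these cells, Gm42418 of 0.247 and Lars2 of 0.278. Fxyd3 had 5.33 (2.68 to 12.0), on 9 control UMIs. Camp held 1692 mutant UMIs there, in 6.75% of the mutant cells. The differences of most leading lower genes were thus found outside the chondrocytes as well as in them. For the higher genes this rested in part on few UMIs or few cells, and what set the differences was not tested. Ibsp, Cxcl1 and Car3 among the higher genes went the other way outside the chondrocytes, with ratios of 0.4999, 0.138 and 0.232. The ratio of Cxcl1 there rested on 8 control and 2 mutant UMIs, with an interval of 0.0142 to 0.690.

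For type III and type I collagen 1 control cell held much of the signal, and Col1a1 was still lower without the top cells. All 432 control UMIs of Col3a1 (330 CPM against 17.8 CPM) were in the deepest control cell, which also held 177 of the 255 control UMIs of Col1a1 and 288 UMIs of Timp1, a metalloprotease inhibitor. Col1a1, the main collagen of bone and fibrous tissue, was read at 195 and 12.6 CPM (ratio 0.0645, 0.0442 to 0.0917), and without the top cell of each library the ratio was 0.150. A Col1a1 UMI was found in 46.1% of control and 10.1% of mutant chondrocytes. The other passing cells of the control library held 86422 CPM of Col1a1 and those of the mutant library 18850 CPM, and the part that free RNA from such cells had in the counts of the chondrocytes was not tested. Pcsk5, a proprotein convertase, owed 77 of 166 control UMIs to 1 cell.

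**Figure D2:**
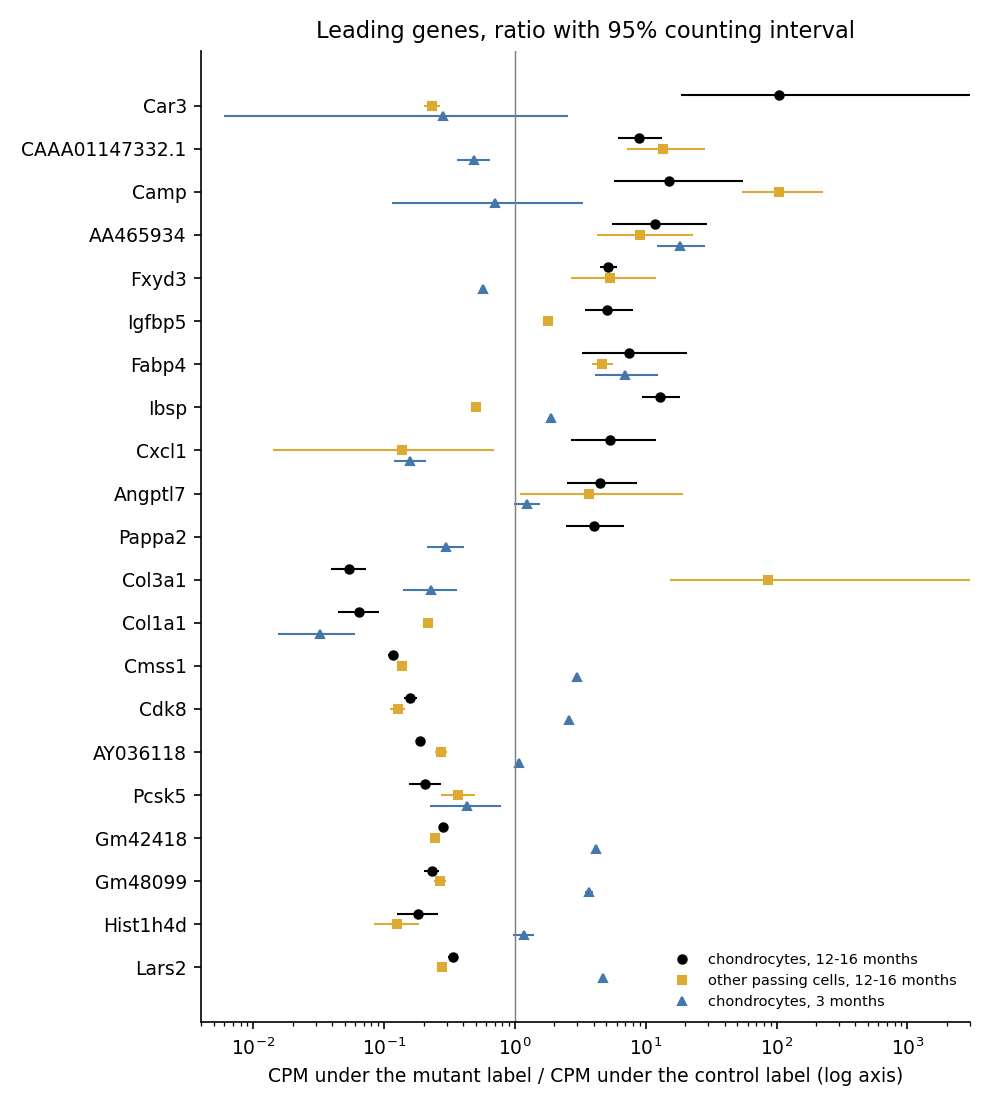
Ratio of mutant to control CPM (log axis) for 21 leading genes, with 95% counting intervals, in 12-16-month chondrocytes (circles), in the other passing cells of the same libraries (squares) and in 3-month chondrocytes (triangles), ratios of 0 or without a control count not being drawn. For Cmss1 the circle (0.117) and square (0.137) lie close together and the triangle (2.98) on the other side of 1, and for Fxyd3 likewise (5.18, 5.33 and 0.571). With the composition held the 3-month ratio of Fxyd3, not drawn, was 1.01 (0.953 to 1.08).

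Among the genes of cartilage matrix, Ecrg4, Comp, Mia and Epyc were higher under the mutant label and Ogn was lower, while most members of the list lay within 1.5-fold. Of 23 cartilage proteoglycan and glycoprotein genes with at least 20 UMIs, 14 were higher and 9 lower, 4 by at least 1.5-fold upwards and 2 downwards, with a median log2 ratio of 0.20. Of all 11031 genes at this depth 11.0% were at least 1.5-fold higher and 11.7% lower, with a median of -0.01. Ecrg4 (chromosome 1, 43730602-43742578, plus strand), a secreted peptide precursor of articular cartilage, was read at 4207 CPM in control and 9248 CPM in mutant chondrocytes (ratio 2.20, 2.14 to 2.26), and at 2.40 times the control level with the composition held. In the 15 control and 62 mutant chondrocytes without the Prg4, Smoc2 and Cilp2 type (under 3 UMIs of these fibrocartilage and joint surface genes together) its direction turned, with a log2 ratio of -0.34, and the median of the list was -0.20. Ecrg4 was detected in 78.7% and 90.7% of chondrocytes, and 73.6% of mutant chondrocytes stood above the control median. Comp, a pentameric glycoprotein that ties collagen fibrils together, was read at 3990 and 6340 CPM (ratio 1.59, 1.54 to 1.64), and 68.6% of mutant chondrocytes stood above the control median. Mia, a small secreted protein of cartilage, was read at 1156 and 1982 CPM, and Epyc, a small leucine-rich proteoglycan of growth cartilage, at 61.2 and 101 CPM, with a log2 ratio of -0.20 without the Prg4, Smoc2 and Cilp2 type. Ogn, another small proteoglycan, was lower (282 and 158 CPM, ratio 0.559, 0.486 to 0.643). Lum, the collagen-binding proteoglycan lumican, had a log2 ratio of -0.63 with all cells and of 0.34 without the deepest control cell.

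The abundant matrix genes moved less. Cytl1, a secreted protein of chondrocytes, was read at 16216 and 21606 CPM (ratio 1.33), Hapln1, the link protein of aggrecan, at 1644 and 2170 CPM (ratio 1.32), Chad at a ratio of 1.15 and Prelp at 0.994 (0.941 to 1.05). Prg4, the lubricin of joint surfaces, was read at 17426 and 18940 CPM (ratio 1.09), and the fibrocartilage genes Cilp and Smoc2 at ratios of 0.888 and 0.758. Of 7 cartilage collagen genes 1 was at least 1.5-fold higher, Col11a2 (728 and 1109 CPM, ratio 1.52), and 0 were lower by that much. Col2a1, the main collagen of cartilage, had a ratio of 1.13 (1.09 to 1.16) in all chondrocytes and of 0.561 (0.530 to 0.595) with the composition held. Of 17 fibrous and pericellular matrix genes 0 were at least 1.5-fold higher and 6 lower (11.0% and 11.7% of all genes at this depth). The median log2 ratio of this list was -0.11 in all chondrocytes, -0.36 with the composition held and 0.26 without the top cells. Among the 6 were Col1a2 (255 and 148 CPM) and Col5a2 (251 and 123 CPM), whose ratios without the top cells were 0.878 and 0.829. Without the deepest control cell Col1a2 turned, to a log2 ratio of 0.15.

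Several genes of the hypertrophic and bone-forming programme were higher in the mutant sum, and others were lower. For some of the higher ones the difference was within counting error once hypertrophic-type cells were left out. These are the cells with at least 3 UMIs of Ihh, Panx3, Prkg2 and Col10a1. The share of these cells among chondrocytes was 22.5% (14.3 to 32.6) in control and 31.0% (25.4 to 37.0) in mutant cells, and the share left out by both criteria was 23.6% (15.2 to 33.8) and 33.7% (28.0 to 39.8). These intervals overlap. The cells left out were deeper than the rest, with medians of 24550 UMIs in 21 control and 15681 UMIs in 87 mutant cells. They gave 492041 of 1308144 control UMIs and 1509962 of 2862639 mutant UMIs.

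Among 16 osteogenic genes 7 were at least 1.5-fold higher and 4 lower (11.0% and 11.7% of all genes at this depth), with a median log2 ratio of 0.40. With the composition held 6 were higher and 5 lower (14.1% and 16.6% of all genes), with a median of 0.22. Col1a1 and Col1a2, given above, were among the 4 lower genes in all chondrocytes. Of 6 osteoblast and osteocyte markers, a list that shares members with this one, 2 were at least 1.5-fold higher and 3 lower. Their median log2 ratio was -0.13 in all chondrocytes and -2.35 with the composition held. Alpl, the alkaline phosphatase of mineralizing cells, was read at 74.9 and 352 CPM (ratio 4.70, 3.82 to 5.85). With the composition held its ratio was 0.728 (0.450 to 1.18), and in the cells left out it was 4.93. Runx2, the transcription factor of hypertrophy and bone formation, was read at 216 and 442 CPM (ratio 2.04), Mef2c, which drives hypertrophy upstream of Runx2, at 161 and 341 CPM (ratio 2.12), and Pth1r, the PTHrP receptor, at 309 and 590 CPM (ratio 1.91). Their ratios with the composition held were 0.579 (0.317 to 1.06), 0.789 (0.582 to 1.07) and 0.834 (0.582 to 1.20), with intervals that include 1. Wnt5b, a WNT ligand of prehypertrophic cells, had ratios of 2.19 and 0.517 (0.144 to 1.80). Within the cells left out these genes were higher under the mutant label as well. The ratios there were 1.57 (1.37 to 1.80) for Runx2 and 2.16 (1.79 to 2.61) for Mef2c. Pth1r had 1.51 (1.34 to 1.69) and Wnt5b 1.86 (1.25 to 2.84). With hypertrophic-type cells alone left out, which kept 69 control and 178 mutant cells, the ratios were 0.961 (0.617 to 1.52) for Alpl, 1.18 (0.770 to 1.86) for Runx2, 0.886 (0.662 to 1.19) for Mef2c, 0.946 (0.690 to 1.31) for Pth1r and 0.750 (0.249 to 2.37) for Wnt5b, and every interval includes 1. With the Zfp804b and Dab1 cells alone left out they were 3.16, 3.77, 1.83, 2.33 and 3.60.

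Ibsp, Spp1 and Smpd3 did not turn. Ibsp (chromosome 5, 104299171-104311469, plus strand), a sialoprotein of mineralizing matrix, was read at 29.8 and 383 CPM (ratio 12.8, 9.33 to 18.2), at 4.83 times the control level (2.81 to 8.89) with the composition held and at 13.3 times in the cells left out. The cells left out held 24 control UMIs of Ibsp, in 23.8% of the control cells there, and 976 mutant UMIs. Ibsp was found in 15.7% and 20.5% of chondrocytes, and the median cell of both libraries had 0 UMIs. Smpd3, a sphingomyelinase needed for mineralization, had ratios of 5.28 and 2.21, the latter with an interval of 0.584 to 12.3. Spp1 (chromosome 5, 104435118-104441050, plus strand), which encodes osteopontin, was read at 1282 and 4269 CPM (ratio 3.33, 3.16 to 3.51). With the composition held its ratio was 2.25 (2.13 to 2.38) and in the cells left out 53.7 (38.9 to 76.4). The latter rested on 37 control UMIs, in 19.0% of the control cells left out, against 6101 mutant UMIs. Spp1 was found in 66.3% and 70.9% of chondrocytes, and the median cell stood at 243 CPM in control and 876 CPM in mutant. Mmp13, the collagenase of hypertrophic cartilage, had 3 control UMIs against 89 in the mutant (ratio 13.6, 4.49 to 67.0). Its direction did turn: with the composition held 2 and 3 UMIs were left (ratio 0.905, 0.104 to 10.8), and with cells of 1 Acan UMI or more the log2 ratio was -1.75. Sp7, the osteoblast transcription factor, was read at 26.0 and 41.6 CPM (ratio 1.60, 1.09 to 2.42). Its ratio within the cells left out, with 33 control and 112 mutant UMIs, was 1.11 (0.744 to 1.68). Foxa2, a hypertrophy factor also listed here as a notochord marker, was read at 2.29 and 22.7 CPM, and Tox at 6.88 and 36.7 CPM. The cells left out held 0 control and 50 mutant UMIs of Foxa2, and 9 and 103 of Tox. Runx1, the RUNX factor of immature and superficial chondrocytes, was lower, at 302.0 and 169 CPM (ratio 0.561, 0.490 to 0.642) and at a ratio of 0.535 with the composition held, but at a log2 ratio of 0.16 without the Prg4, Smoc2 and Cilp2 type. Mgp, an inhibitor of mineralization, had ratios of 1.16 in all chondrocytes and 2.41 with the composition held. In the cells left out, with 23601 control and 57930 mutant UMIs, its ratio was 0.800 (0.788 to 0.812), the other direction.

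**Figure D3:**
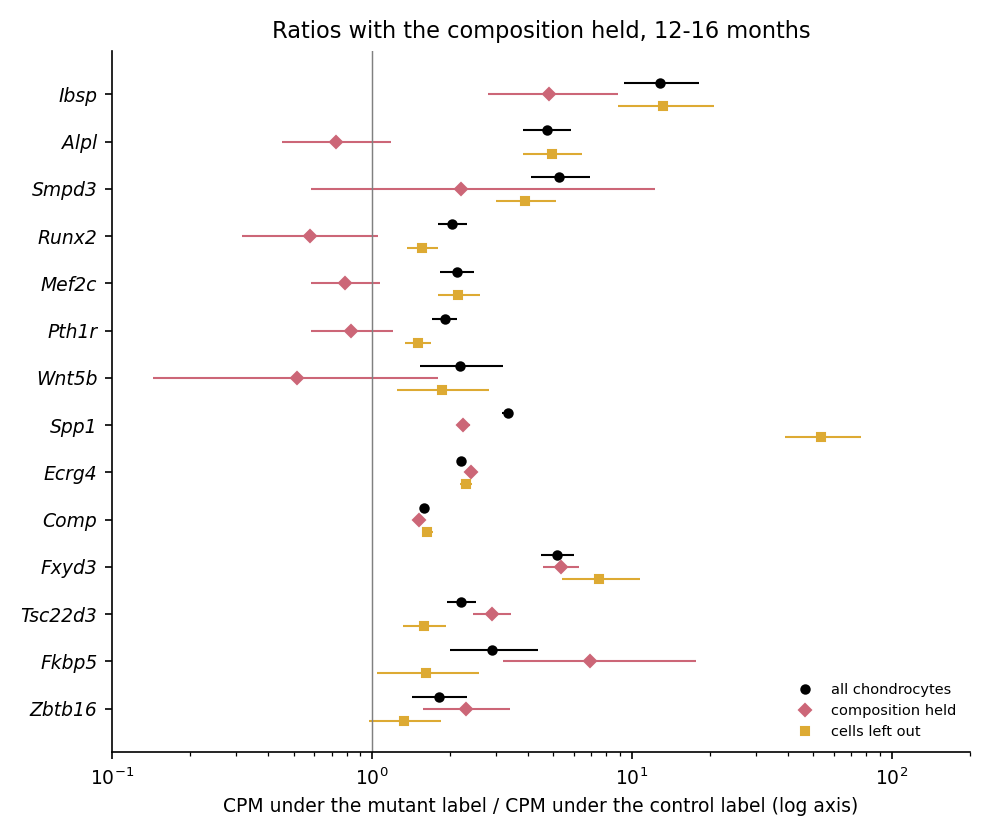
Ratio of mutant to control CPM (log axis) with 95% counting intervals for 14 genes in all chondrocytes (circles), in composition-held chondrocytes (diamonds) and in the cells left out (squares). For Alpl, Runx2, Mef2c, Pth1r and Wnt5b the diamond lies below 1 with an interval that includes 1, whereas the diamonds of Spp1, Ecrg4, Comp, Fxyd3, Tsc22d3, Fkbp5 and Zbtb16 lie above 1.

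Spp1 is a classic RUNX target, and the letters of a RUNX motif were searched for in windows from 250 bases before to 50 bases after each RefSeq transcription start (GRCm38.p6). The motif searched was AACCACA, read on the other strand as TGTGGTT. It was present in 5.27% of 32851 windows, in 1 of 2 windows of Spp1, in 0 of 1 of Ibsp and in 0 of 2 of Alpl. The Spp1 window with the match, at chr5:104434861-104435160 on the plus strand, is printed with the motif in capitals, as a description of the sequence only.
Spp1: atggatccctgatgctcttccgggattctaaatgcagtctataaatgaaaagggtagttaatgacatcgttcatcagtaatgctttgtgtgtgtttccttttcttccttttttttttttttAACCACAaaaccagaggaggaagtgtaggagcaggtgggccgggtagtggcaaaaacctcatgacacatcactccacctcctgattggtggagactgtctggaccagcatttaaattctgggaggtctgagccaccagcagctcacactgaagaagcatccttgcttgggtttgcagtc

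Targets of the glucocorticoid receptor were the list with the highest median among the 29 pathway lists in all chondrocytes. Of 10 such genes with at least 20 UMIs, 9 were higher and 1 lower under the mutant label, 5 by at least 1.5-fold (background 11.0%) and 0 lower by that much. The median log2 ratio was 0.55 in all chondrocytes and 0.92 with the composition held, where 6 of 10 were at least 1.5-fold higher against 14.1% of all genes at that depth. Fkbp5 (chromosome 17, 28399094-28517527, minus strand), a chaperone of the receptor and one of its most inducible genes, was read at 24.5 and 71.3 CPM (ratio 2.91, 2.00 to 4.37) and in 15.7% and 34.5% of chondrocytes. Tsc22d3 (chromosome X, 140539528-140600659, minus strand), the glucocorticoid-induced leucine zipper, was read at 230.1 and 509 CPM (ratio 2.21, 1.95 to 2.51), and 79.8% of mutant chondrocytes stood above the control median of 139 CPM. Zbtb16, a zinc-finger repressor, was read at 65.7 and 119 CPM (ratio 1.81, 1.43 to 2.32), and Sgk1, a kinase of salt and stress responses, at 122 and 253 CPM (ratio 2.08, 1.75 to 2.48). The metallothionein genes Mt2 and Mt1 had ratios of 1.54 and 1.29.

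With the composition held the ratios were 6.90 for Fkbp5, 2.90 for Tsc22d3, 2.30 for Zbtb16, 1.27 for Sgk1 and 2.28 for Mt2. The 6.90 of Fkbp5 rested on few control UMIs, since 25 of its control UMIs were in the cells left out. In those cells its ratio was 1.62 (1.05 to 2.59). There Sgk1 had 3.70, Klf9 1.60, Tsc22d3 1.59, Zbtb16 1.33 (0.972 to 1.85) and Cdkn1a 1.31 (0.954 to 1.83). Per1 had 0.978 (0.665 to 1.47) and Errfi1 0.907 (0.699 to 1.19) in them. Mt2 and Mt1 had 0.588 and 0.563 in the cells left out, the other direction. In all chondrocytes Errfi1, Klf9 and Per1 had ratios of 1.40, 1.21 (0.985 to 1.51) and 1.18 (0.879 to 1.61), and Cdkn1a of 0.879 (0.771 to 1.00). In the other passing cells, where 27.5% of genes were at least 1.5-fold higher under the mutant label and the median log2 ratio was 0.31, the ratios were 2.64 for Fkbp5, 3.46 for Tsc22d3, 2.68 for Zbtb16 and 3.76 for Sgk1, and Cdkn1a was lower (0.690, 0.536 to 0.889).

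The letters of the glucocorticoid receptor half-site AGAACA, read on the other strand as TGTTCT, were found in 19.0% of all 32851 windows, and among the list in 4 of 19 windows, those of Sgk1 (3 of 6) and Tsc22d3 (1 of 3). Windows were at hand for 9 of the 10 genes, all but Zbtb16. The full palindromic site, a half-site followed after 3 bases by its reverse complement, was found in 3 of all windows, and 1 of these was the Sgk1 window at chr10:21993640-21993939 (plus strand). That window and the Tsc22d3 window with a match, at chrX:140600473-140600772 (minus strand), are printed as examples of windows with a match, with the half-sites in capitals. The 1 window of Fkbp5, the gene of the list with the largest ratio, held none.
Sgk1: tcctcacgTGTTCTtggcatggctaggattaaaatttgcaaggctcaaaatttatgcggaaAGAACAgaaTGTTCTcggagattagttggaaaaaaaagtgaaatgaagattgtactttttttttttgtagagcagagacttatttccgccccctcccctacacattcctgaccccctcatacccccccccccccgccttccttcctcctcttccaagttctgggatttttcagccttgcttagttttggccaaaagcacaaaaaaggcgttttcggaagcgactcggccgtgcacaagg
Tsc22d3: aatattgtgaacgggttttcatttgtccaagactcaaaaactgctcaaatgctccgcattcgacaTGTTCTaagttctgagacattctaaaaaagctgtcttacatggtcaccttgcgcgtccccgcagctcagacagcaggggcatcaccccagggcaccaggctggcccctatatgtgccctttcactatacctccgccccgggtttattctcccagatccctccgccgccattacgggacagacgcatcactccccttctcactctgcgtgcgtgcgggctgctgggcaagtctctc

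Feedback genes of the RAS and MAPK pathway were not higher as a group. Of 14 MAPK target and feedback genes 6 were higher and 8 lower, 2 by at least 1.5-fold upwards and 3 downwards (11.0% and 11.7% of all genes), with a median log2 ratio of -0.19. Dusp6, the phosphatase that ERK induces against itself, was read at 14.5 and 6.29 CPM (ratio 0.433, 0.214 to 0.871), with a log2 ratio of 0.16 in cells with Xist and no Y-linked UMI. Egr1, an early transcription factor downstream of ERK, was read at 1889.7 and 1316 CPM (ratio 0.696), and Myc at 35.2 and 20.3 CPM (ratio 0.576). Ccnd1, the cyclin of cell cycle entry, was higher in all chondrocytes (45.9 and 72.3 CPM, ratio 1.58, 1.18 to 2.14) with a ratio of 1.07 when the composition was held. Phlda1 had a ratio of 1.19 (1.07 to 1.33). Of 8 genes that brake RAS itself 0 were at least 1.5-fold different in either direction. Among them Spry2 had a ratio of 0.836 (0.545 to 1.30), Spred1 of 0.846 (0.678 to 1.06), Spred2 of 1.07 (0.736 to 1.57) and Rasa1 of 0.948 (0.738 to 1.22), all with intervals that include 1.

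Most immediate early and dissociation stress genes were lower in the sums by less than 1.5-fold, and the direction of the list depended on which cells were counted. Of 22 such genes 17 were lower and 5 higher, 2 by at least 1.5-fold downwards and 1 upwards (11.7% and 11.0% of all genes). The median log2 ratio was -0.33 in all chondrocytes, -0.071 with cells thinned to 3000 UMIs, 0.88 without the Prg4, Smoc2 and Cilp2 type and 0.17 without cells with at least 3 UMIs of Chrdl2 and Meox2. Fos and Jun had ratios of 0.778 and 0.791, and the orphan nuclear receptor Nr4a1 was read at 313 and 161 CPM (ratio 0.516, 0.451 to 0.591), with a log2 ratio of 0.054 when thinned. The heat shock gene Hspa1b was the exception above 1.5-fold (330.2 and 574 CPM, ratio 1.74). Socs3, the feedback inhibitor of cytokine receptors, was read at 741 and 457 CPM (ratio 0.617, 0.568 to 0.672), although 58.5% of mutant chondrocytes stood above the control median of 116 CPM. Irf1, an interferon-induced transcription factor, was read at 169 and 75.8 CPM (ratio 0.449, 0.370 to 0.544). Without the Prg4, Smoc2 and Cilp2 type both turned, to log2 ratios of 2.23 for Socs3 and 0.91 for Irf1, and without the Chrdl2 and Meox2 cells Socs3 had 0.10. Of 15 NF-kB and cytokine response genes 3 were at least 1.5-fold higher and 4 lower, and of 10 interferon genes 0 and 3.

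Nuclear genes of oxidative phosphorylation were higher by small amounts, and the median of glycolysis genes was near 0. Of 52 nuclear genes for oxidative phosphorylation subunits 47 were higher, with a median log2 ratio of 0.20, but 1 alone (Ndufs6, ratio 1.54) passed 1.5-fold. Of all 11031 genes at this depth 5349 were higher, and 11.0% were at least 1.5-fold higher. In the 3-month chondrocytes the median of the list was -0.38. There 0 of its genes were at least 1.5-fold higher and 9 lower (20.7% and 14.3% of all genes). The 13 mitochondrially encoded genes summed to 13913 CPM in control and 18773 CPM in mutant chondrocytes, and the median share of mitochondrial UMIs per cell was 1.33% and 1.74%. Of 26 glycolysis and hypoxia genes 13 were higher and 13 lower, 2 and 5 of them by at least 1.5-fold (11.0% and 11.7% of all genes), with a median log2 ratio of -0.0059. Hk2, the inducible hexokinase, was read at 186 and 72.3 CPM (ratio 0.389, 0.322 to 0.470) and in 69.7% and 37.6% of chondrocytes, and Gapdh at 680.4 and 362 CPM (ratio 0.532, 0.486 to 0.582). In the other passing cells Hk2 had a ratio of 0.487 and Gapdh of 1.06. Apoe, a lipid carrier, was read at 1869.8 and 1158 CPM (ratio 0.619), and Igfbp6, an IGF-II-binding protein, at 267 and 107 CPM (ratio 0.402).

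Among signalling lists, axon guidance and WNT genes were more often at least 1.5-fold higher than the 11.0% of all genes, and TGF-beta and BMP genes were not. Of 16 axon guidance genes 7 were at least 1.5-fold higher and 0 lower, with medians of 0.36 in all chondrocytes and 0.24 with the composition held, and of 16 WNT genes 5 and 1, with medians of 0.30 and -0.19. Of the axon guidance genes 5 were higher and 2 lower by that much with the composition held, and of the WNT genes 2 and 5 (14.1% and 16.6% of all genes). Ror1, a WNT5 receptor, was read at 26.0 and 80.0 CPM (ratio 3.08, 2.14 to 4.55). Most of its UMIs were in the cells left out to hold the composition (31 control and 211 mutant UMIs), where the ratio was 2.22 (1.52 to 3.35). Of 33 TGF-beta and BMP genes 3 were at least 1.5-fold higher and 3 lower. Smad3, a transducer of TGF-beta, was read at 29.1 and 59.4 CPM (ratio 2.04). Of 16 clock genes 2 were at least 1.5-fold higher and 2 lower. The clock repressor Nr1d1 was read at 149 and 84.5 CPM, in 76.4% and 41.1% of cells, and Per2 at 15.3 and 36.0 CPM.

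**Figure D4:**
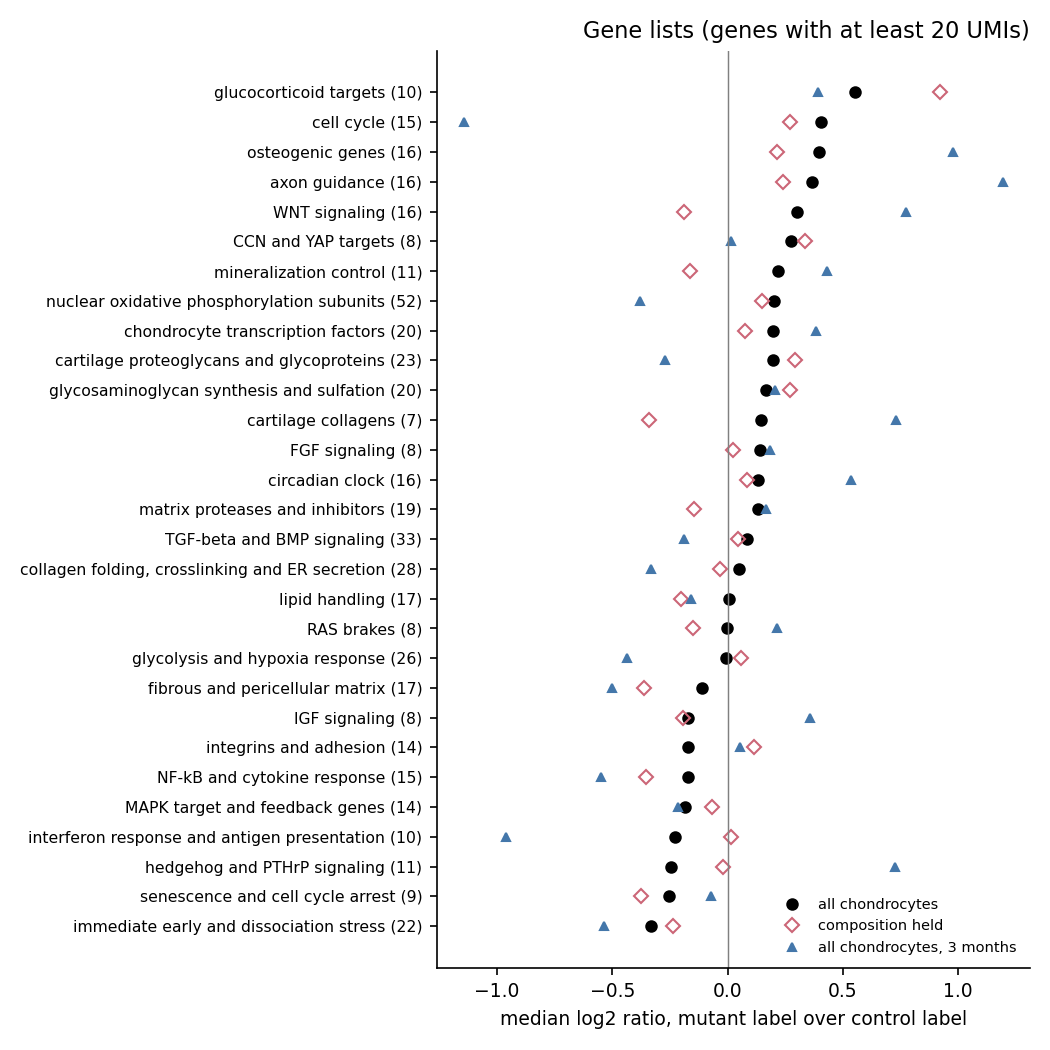
Median log2 ratio of mutant to control CPM for the genes of each pathway list with at least 20 UMIs (number of genes in parentheses), in all 12-16-month chondrocytes (circles), with the composition held (open diamonds) and in 3-month chondrocytes (triangles). The glucocorticoid targets have the highest circle (0.55), and the circles and triangles of many lists lie on different sides of 0.

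Some nuclear RNAs differed across nearly all cells. Malat1, a long non-coding RNA kept in the nucleus, was read at 28157 and 14606 CPM (ratio 0.519, 0.512 to 0.526), and 12.8% of mutant chondrocytes reached the median control chondrocyte. Its ratio was 0.480 with the composition held and 0.585 in the other passing cells. Neat1, the paraspeckle RNA, had a ratio of 1.34 (1.24 to 1.46), and Gm26917, next to Gm42418 on chromosome 17, was read at 48.2 and 160 CPM (ratio 3.31, 2.54 to 4.39).

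**Figure D5:**
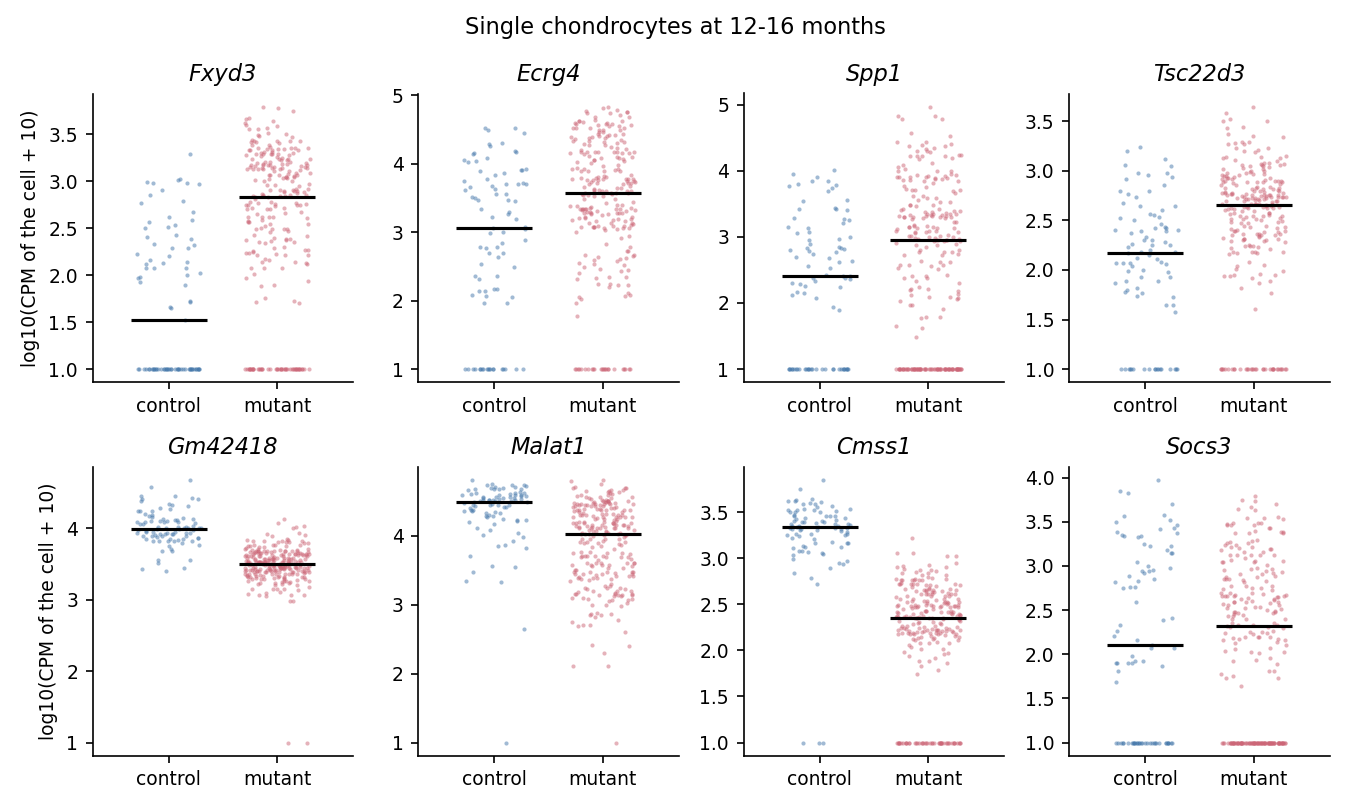
Level of 8 genes in each of 89 control and 258 mutant chondrocytes at 12-16 months, as log10 of the cell's CPM plus 10, with the median as a line (cells of 1 library are not replicates). The mutant cells lie higher for Fxyd3, Ecrg4 and Tsc22d3 and lower for Cmss1, Gm42418 and Malat1, with overlap between the libraries for all 8 genes.

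The make-up of the chondrocytes by other marker pairs differed in 1 class. Cells with at least 3 UMIs of Chrdl2, a BMP antagonist, and Meox2, a homeobox factor, made up 30.3% (21.0 to 41.0) of control and 10.5% (7.01 to 14.9) of mutant chondrocytes. After thinning to 3000 UMIs, at least 1 UMI of either was found in 30.9% (21.1 to 42.1) and 17.7% (13.1 to 23.1), with 81 and 243 cells deep enough, and these intervals overlap. Chrdl2 itself was read at 102 and 56.2 CPM. Cells with Prg4, Smoc2 and Cilp2 made up 83.1% (73.7 to 90.2) and 76.0% (70.3 to 81.1), and cells with Sfrp5 and Adamtsl2 25.8% (17.1 to 36.2) and 17.4% (13.0 to 22.6).

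Chondrocytes of 3-month-old mice, 562 control and 377 mutant cells of other libraries with the same genotypes, gave values that can be set beside these. Of them 463 control and 370 mutant cells held Xist and no Y-linked UMI, and 53 and 0 held Y-linked UMIs and no Xist. The mix of sexes read from these transcripts thus differed between the 3-month labels, and its part in the 3-month ratios was not tested. At 3 months 1983 of 9851 genes (20.1%) were at least 1.5-fold higher under the mutant label and 1343 (13.6%) lower. Of 372 genes higher at 12-16 months and deep enough at both ages, 158 (42.5%) were also at least 1.5-fold higher at 3 months and 37 (9.95%) lower. The former number is 13.8% of the 1149 genes higher at 3 months. Of 331 lower genes 70 (21.1%) were also lower, which is 9.33% of 750, and 55 (16.6%) higher. Over all 5871 such genes 19.6% were higher and 12.8% lower at 3 months. The share of cells left out for their hypertrophic or Zfp804b and Dab1 type was 18.9% in control and 47.5% in mutant chondrocytes at 3 months.

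Fkbp5, Tsc22d3 and Zbtb16 were higher under the mutant label at both ages, with 3-month ratios of 19.1, 2.18 and 6.69. Of all 10 glucocorticoid targets, 5 were at least 1.5-fold higher at 3 months and 2 lower (20.7% and 14.3% of all genes). The median log2 ratio of the list was 0.39 at that age. Runx2, Alpl and Ibsp had 3-month ratios of 4.50, 3.39 and 1.89 in all chondrocytes. With the composition held at 3 months Ibsp turned, to a ratio of 0.781 (0.701 to 0.868). Ecrg4, Comp and Prg4 were lower at 3 months, with ratios of 0.502, 0.522 and 0.458, and Spp1 had a ratio of 0.710. Of the 24 leading genes 6 went the same way by at least 1.5-fold in all chondrocytes at 3 months and 12 went the opposite way. One of the latter, Fxyd3, had a 3-month ratio of 1.01 (0.953 to 1.08) with the composition held. The difference between the ages was not tested, since each library stands alone.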

How the data were processed

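Single-cell libraries of sorted tdTomato-positive spine cells, 1 per genotype and age, were read as the authors' deposited UMI count matrices, which per the file headers were written by Cell Ranger 8.0.0. Per the labels reads were aligned to mm10 with tdTomato added, and the values are whole counts of UMIs per gene and barcode, not normalized. The study removed free RNA with SoupX in its own analysis. Whether this was done before the deposit is not given in the sources used here, and the counts were taken as uncorrected. The study's own clusters were not used here.

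Barcodes were filtered with the limits given in the report, and chondrocytes were chosen by their Sox9 and Acan UMIs. UMIs were summed per library and gene and divided by the summed UMIs to give CPM. Levels were given exact Poisson intervals, ratios exact conditional binomial intervals and shares Clopper-Pearson intervals, all at 95% and for counting error only. For Prss56, with 0 UMIs in both libraries, a floor of 3 counts was given. No floor entered the ratios, and a ratio of 0 is given with the upper bound of its interval. With 1 library per group no p-value was computed. Leading genes were the 12 of each direction whose interval bound stood farthest from 1 in the weaker of all and composition-held chondrocytes, among genes with at least 100 UMIs. The ranking left out the genes of the cell rules, sex-linked genes, hemoglobins and the genes of ribosomal proteins and of mitochondrial DNA. Some of the leading genes are not reported here one by one, nor drawn, but are in the counts. Gene lists were described by counts and medians over genes with at least 20 UMIs. The members and lists were chosen with earlier results of these data known. Coordinates are those of GENCODE vM21 on mm10, which held 99.8% of the gene identifiers, and promoter windows are from RefSeq (GRCm38.p6).

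Python 3.11.15 with numpy 2.4.6, scipy 1.17.1, pandas 2.3.3 and matplotlib 3.10.9 was used, and edgeR 4.0.16 in R 4.3.3 for an alternative scaling by TMM factors. Intervals and calls past 1.5-fold were tested on simulated Poisson counts of library sums, which do not model UMIs gathered in single cells. The ranking of leading genes was not tested. Alternatives were other scalings, cells thinned to 3000 UMIs, other limits on Acan, mitochondrial share, UMIs and fold, and leaving out called doublets, cells with markers of other types, the top cell of each gene, the deepest control cell and 3 marker-defined classes.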

Additional observations from a re-analysis of the deposited data

Results flagged for a closer look

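Of 90 genes looked at, 14 had a ratio of mutant to control past 1.5-fold in opposite directions at 12-16 and 3 months. Each had a counting interval on its side of 1, in all chondrocytes of each age. The 90 were leading genes and genes chosen for the text, so their share does not describe all genes. Among all 5871 genes with at least 100 UMIs at both ages, 372 were higher at 12-16 months and 37 of these lower at 3 months. Of the 331 lower ones 55 were higher at 3 months, with no condition on the intervals. With 1 library per group and age the difference between the ages was not tested, and library, animals, their sex and age cannot be told apart.

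Genes higher under the mutant label at 12-16 months and lower at 3 months were the secreted and membrane proteins Ecrg4 (ratios 2.20 and 0.502), Comp (1.59 and 0.522), Fxyd3 (5.18 and 0.571), Pappa2 (3.99 and 0.297) and Cxcl1 (5.33 and 0.158), the collagenase Mmp13 (13.6 and 0.0360) and the unnamed CAAA01147332.1 (8.89 and 0.485). Igfbp5 had a ratio of 5.10 at 12-16 months and 0 mutant UMIs at 3 months, where the upper bound of the ratio was 0.0461. Mmp13 rested on 3 control UMIs at 12-16 months. These values are of all chondrocytes. With the composition held at 3 months, Fxyd3 had a ratio of 1.01 (0.953 to 1.08) and CAAA01147332.1 of 0.822 (0.593 to 1.12). Both of these intervals include 1. Pappa2 had 0.614 (0.441 to 0.839) and Cxcl1 0.253 (0.180 to 0.347) by the same measure.

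Genes lower at 12-16 months and higher at 3 months were Cmss1 (0.117 and 2.98), Cdk8 (0.158 and 2.59), Gm48099 (0.231 and 3.68), Gm42418 (0.279 and 4.20), Lars2 (0.334 and 4.74) and the proteoglycan Lum (0.645 and 1.86). All of these, Lum included (ratio 0.474, 0.409 to 0.549), were lower by at least 1.5-fold in the other passing cells of the 12-16-month mutant library too. The direction of Lum in the 12-16-month chondrocytes depended on the cells counted. Its log2 ratio there was 0.34 without the deepest control cell, 0.54 thinned, 0.25 in Xist cells and 0.078 with cells weighted equally. Split into 4 classes by the span of the gene on the genome, the longest genes had a median log2 ratio of 0.04 at 12-16 months and 0.50 at 3 months, and the shortest of 0.03 and -0.37.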

How the results depend on the processing

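No paired analysis was possible because each group was 1 library and the labels give no replicate numbers to pair. Over the alternatives run, 450 of 491 values of the 29 list medians and 1047 of 1427 values of the 91 named genes stayed within counting error (the gene's own interval, or the median half-width of the list's genes), and 414 and 1353 kept their direction. Scalings moved the median log2 ratio of all genes to between -0.00 and 0.02. The causes of the changes below were not tested, apart from those that leave fewer UMIs or genes by construction.

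Counts of genes higher and lower by 1.5-fold were 113 and 83 with cells thinned to 3000 UMIs (81 and 61 with the composition held), 701 and 696 with at least 50 UMIs, 178 and 156 with at least 200, 4274 and 4320 with at least 1, 106 and 74 at 2-fold, and 211 and 211 without hypertrophic-type cells. Thinned, the shares left out were 10.9% and 19.8%. The median of cartilage collagens was -0.34 with the composition held, -0.19 without hypertrophic-type cells, 0.30 without the top cells, -0.011 without cells with markers of other types, -0.0095 in cells with Xist and no Y-linked UMI, -0.15 without cells with Prg4, Smoc2 and Cilp2 (15 control and 62 mutant cells left) and -0.0351 without cells with Chrdl2 and Meox2. In the same order of the last pair, proteoglycans had -0.20 and 0.040, and immediate early genes 0.88 and 0.17. Proteoglycans had 0.11 with at least 6 Acan UMIs, 0.32 without the deepest control cell and 0.29 with the composition held, and immediate early genes -0.071 thinned, -0.20 with at least 6 Acan UMIs and -0.0954 in Xist cells. Glucocorticoid targets had 1.03 with cells weighted equally, 0.86 without the deepest control cell and without the top cells, 0.94 in Xist cells, 0.80 without hypertrophic-type cells and 0.92 with the composition held.

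Log2 ratios of single genes turned with the composition held for Runx2 (-0.79), Alpl (-0.46), Mef2c (-0.34), Pth1r (-0.26), Wnt5b (-0.95) and Mmp13 (-0.14), and without hypertrophic-type cells for Alpl (-0.057), Mef2c (-0.17), Pth1r (-0.080), Wnt5b (-0.41) and Mmp13 (-0.19). Without cells with Prg4, Smoc2 and Cilp2 they turned for Epyc (-0.20), Ecrg4 (-0.34), Runx1 (0.16), Socs3 (2.23) and Irf1 (0.91). Lum turned with cells weighted equally (0.078), thinned (0.54), without the deepest control cell (0.34) and in Xist cells (0.25). Col1a2 turned without the deepest control cell (0.15) and in Xist cells (0.14), Dusp6 in Xist cells (0.16), Nr4a1 when thinned (0.054), Mmp13 with at least 1 Acan UMI (-1.75), and Socs3 (0.10) and Chrdl2 (0.22) without cells with Chrdl2 and Meox2. Doublets were scored as Scrublet does and about the highest-scoring 6% called, ties included (5.93% of control and 8.31% of mutant passing cells), which removed 2 control and 10 mutant chondrocytes and left 364 higher and 333 lower genes. The deepest control cell, the Xist cells, the top cells, the Chrdl2 and Meox2 class and leaving out hypertrophic-type cells alone were chosen after seeing the data.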
